A study of Danio rerio with 32 samples.

Results

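This account covers the genes of glutathione use, peroxide removal and the antioxidant response in livers and skeletal muscles from adult female zebrafish. The members were taken from the authors' count table by symbol. They are the glutathione S-transferases of the classes gsta, gstm, gstp, gstt, gsto, gstk, gstr and mgst, the glutathione peroxidases (gpx), the peroxiredoxins (prdx) and the thioredoxin reductases (txnrd). Single genes were added to these, namely gclc, gclm, gsr, gss, sod1, sod2, cat, nqo1, hmox1a, srxn1 and mt2. Of 31658 genes in the table, 50 matched by symbol, and 43 had at least 10 counts in at least 8 of the 32 libraries. The 7 that did not were gss, gstp2, gpx2, gpx7, srxn1, txnrd2.1 and txnrd2.2. The members just inside this floor were gpx1b, with 10 counts in 8 libraries, and gsto1, in 10 libraries, and those just outside were gss, in 5 libraries, and gstp2, in 4.

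The fish were of the AB strain and were either wild type or carried a gys2 knockout. The gene gys2 encodes the liver form of glycogen synthase, the enzyme that builds glycogen from glucose. Livers and muscles from 8 fish of each genotype were sequenced at the 3′ ends of polyadenylated transcripts (Lasy-Seq), which gave 4 groups of 8 libraries: wild-type liver, knockout liver, wild-type muscle and knockout muscle. The labels give neither the position of the lesion, nor the number of founder lines, nor which liver and which muscle came from the same fish.

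Glutathione is a tripeptide that cells hold in large amounts as a reductant. Glutathione peroxidases and peroxiredoxins use it, or thioredoxin, to reduce hydrogen peroxide and lipid peroxides, superoxide dismutases and catalase act one step before and beside them, and glutathione S-transferases join glutathione to reactive compounds so that they can be exported. The liver is known as the main organ of glutathione synthesis and of such conjugation, while mitochondria, in muscle fibres as in other cells, make superoxide as they respire. Many of these genes are targets of the transcription factor Nrf2, which the adaptor Keap1 holds at a low level in unstressed cells, and metallothioneins such as mt2, which bind zinc and copper, are switched on by the metal-sensing factor Mtf1.

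Library totals ran from 1514099 to 2366219 counts in wild-type liver, from 2562717 to 15351773 in knockout liver, from 1664493 to 7264469 in wild-type muscle and from 2373329 to 3620243 in knockout muscle, so that every knockout liver was deeper than every wild-type liver. Levels are given as CPM, counts scaled to a library of 1000000 counts. The library size was first multiplied by its TMM factor, which sets most genes equal between libraries, and all 32 libraries were scaled together. The tissue labels matched their markers. The summed level of 14 hepatocyte markers had medians of 50445 and 75919 CPM in wild-type and knockout liver against 1161 and 1031 CPM in the muscles, and that of 16 muscle fibre markers had medians of 100680 and 83240 CPM in muscle against 2815 and 3137 CPM in liver. No marker of either list was at 0 in the other tissue. By their hepatocyte markers 4 libraries stood apart, wild-type liver 5 (126420 CPM) and knockout liver 1 (157860 CPM) among livers, and wild-type muscle 6 (6722 CPM) and knockout muscle 6 (3386 CPM) among muscles. The targeted gene gys2 was at 11.96 ± 7.42 CPM (SD, n = 8) in livers of wild-type fish against 1.36 ± 0.943 CPM (n = 8) in those of knockout fish, and at 0.780 ± 1.10 and 1.09 ± 0.855 CPM in the muscles. In whole tissue, fewer cells of a type and less RNA per cell cannot be told apart.

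The first comparison asked where these genes were expressed (heat map of the 43 genes), and several families were split between the tissues. Many of the transferases, the glutathione peroxidases gpx1a, gpx3 and gpx4a, the peroxiredoxins prdx1, prdx2, prdx4 and prdx6, catalase and sod1 were higher in liver. In wild type prdx3, prdx5, sod2 and the kappa-class transferases gstk1 and gstk2 were higher in muscle. Where the products of the members lie in the cell was not examined. Over the wild-type libraries, 38 members passed the count filter of the edgeR fit and 26 were called, 21 as higher in liver and 5 as higher in muscle. A call means an edgeR p under 0.05 after Benjamini-Hochberg adjustment over all genes tested. Of all 10648 genes tested in that comparison, 33.9% were called, 15% as higher in liver and 18.9% as higher in muscle. The members' median log2 difference was 1.42, against 0.01 over all genes. Over the knockout libraries, which share no sample with the wild-type comparison, 32 of 40 members were called, 28 as higher in liver and 4 as higher in muscle. Here 43.4% of all 11685 genes were called, 21.2% as higher in liver and 22.2% as higher in muscle. The counts in the knockout depended on the scaling: with library totals in place of TMM they were 20 higher in liver and 10 higher in muscle. Under that scaling 1254 of all 11685 genes were called as higher in liver and 7767 as higher in muscle. The median of all genes was then at -1.03 instead of -0.15. A total of 21 members were called as higher in liver in both genotypes and 3 as higher in muscle in both, gstk1, prdx3 and prdx5, and no member was called in opposite directions. In the knockout the call of prdx5 was lost without a filter (edgeR adjusted p = 0.0887). It was also lost by limma-voom with cyclic loess scaling (log2 difference -0.50, adjusted p = 0.179). The call of mt2 in the knockout was lost with library totals (edgeR adjusted p = 0.536).

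**Figure D1:**
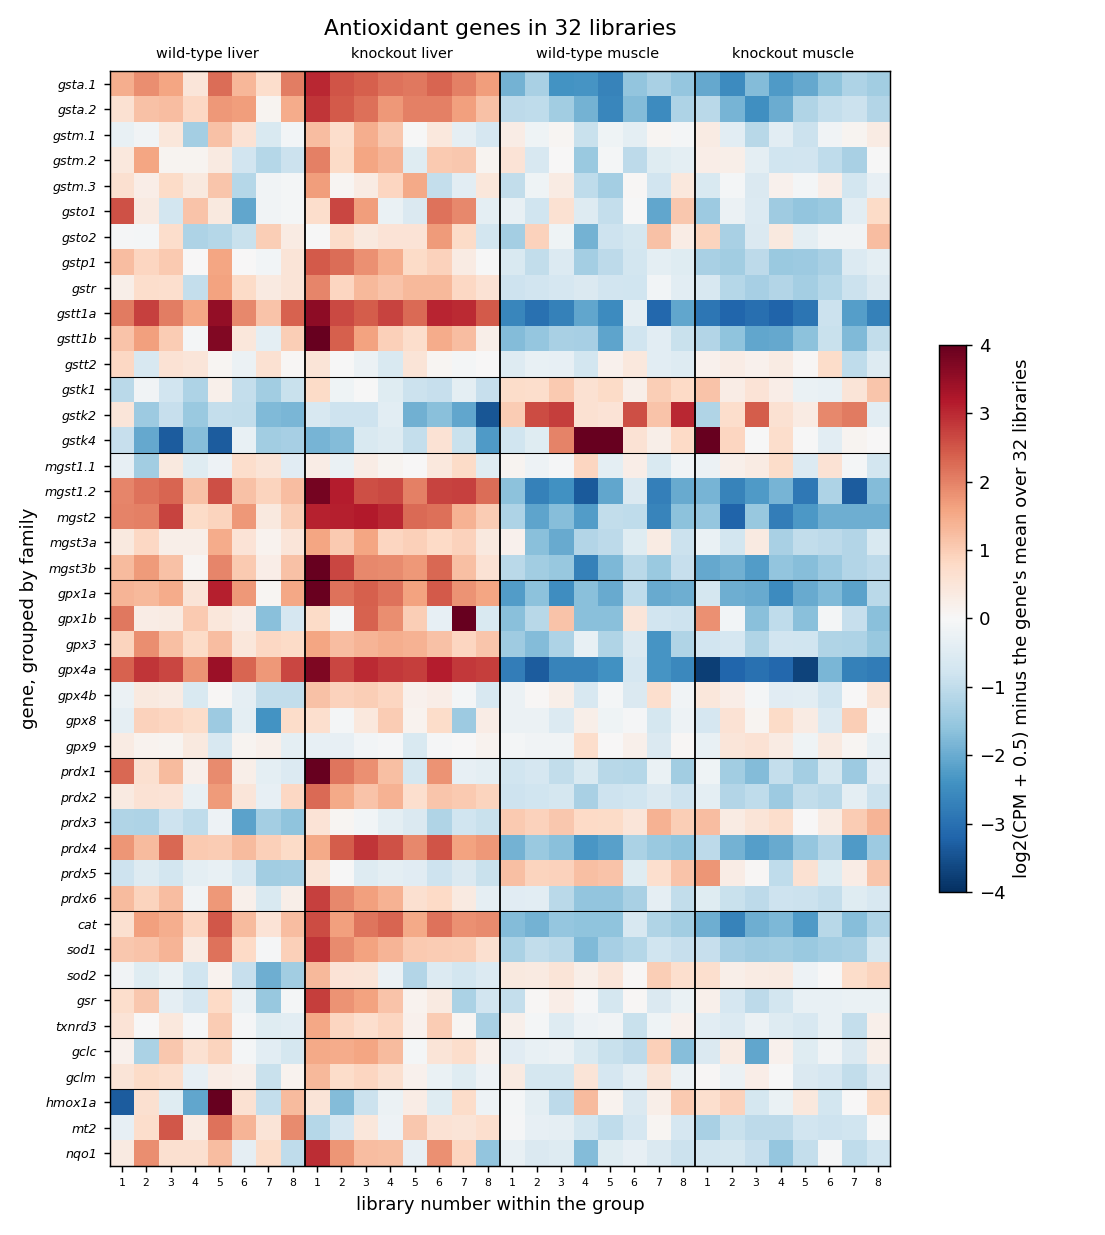
Level of the 43 genes (rows, grouped by family) in the 32 libraries (columns, by group and library number), as log2(CPM + 0.5) minus the gene's mean over all libraries; red is above and blue below that mean. The liver columns are red and the muscle columns blue for most rows, the rows of gstk1, gstk2, prdx3, prdx5 and sod2 run the other way, and gstk4 is high in 3 muscle libraries.

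The log2 tissue differences of the cytosolic transferases tested in wild type ran from 0.26 (gstm.1) to 4.38 (gstt1a). The theta-class gene gstt1a ranged from 163 to 859 CPM in wild-type liver (median 314) and from 8.03 to 57.0 CPM in wild-type muscle (median 12.2), and no muscle library reached a liver library. Its log2 difference was 4.38 ± 0.47 (SE; edgeR adjusted p = 5.64e-07) in wild type and 5.18 ± 0.36 (adjusted p = 1.34e-11) in knockout. The alpha-class gene gsta.1 ranged from 58.0 to 193 CPM in wild-type liver (median 117) and from 6.01 to 16.5 CPM in wild-type muscle (median 11.98), again with no overlap. It differed by a log2 of 3.42 ± 0.27 (edgeR adjusted p = 3.23e-11). Its neighbour gsta.2 had means of 11.8 and 22.4 CPM in wild-type and knockout liver and 1.30 and 1.60 CPM in the muscles. With 1 to 12 counts in wild-type and 2 to 9 in knockout muscles, gsta.2 met the count rule for members through the livers. The theta-class gene gstt1b was also higher in liver, by 2.91 ± 0.58 in wild type and 4.31 ± 0.78 in knockout (log2, edgeR adjusted p = 0.000734 and 0.000311).

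The pi-class gene gstp1 and the rho-class gene gstr, of a class known from fish, were well expressed in both tissues and differed less. For gstp1 the wild-type livers ran from 234 to 757 CPM (median 410) and the wild-type muscles from 99.2 to 194 CPM (median 158), which do not overlap. Its log2 difference was 1.51 ± 0.24 (edgeR adjusted p = 4.99e-06). For gstr they ran from 168 to 1015 CPM (median 495) in liver and from 185 to 303 CPM (median 201) in muscle, and the groups overlap through 1 liver, number 4. Its log2 difference was 1.24 ± 0.24 in wild type (edgeR adjusted p = 9.71e-05). In wild type the mu-class genes gstm.1 (means 60.0 CPM in liver and 50.1 CPM in muscle), gstm.2 (9.06 and 6.01 CPM) and gstm.3 (13.1 and 8.13 CPM) and the theta-class gene gstt2 (33.4 and 23.2 CPM) were not called by edgeR, while gstt2 was called as higher in liver by DESeq2 (adjusted p = 0.0317) and limma-voom (adjusted p = 0.036). In the knockout the 3 mu-class genes were called as higher in liver, with log2 differences of 0.80 ± 0.28, 1.52 ± 0.31 and 0.86 ± 0.31. The omega-class genes gsto1 and gsto2 had means of 0.915 to 5.20 CPM and 3.15 to 5.10 CPM over the 4 groups. By edgeR gsto2 was not called in the knockout, and it did not pass the filter in wild type. With cyclic loess scaling by limma-voom it was called as higher in liver in the knockout (log2 difference 0.93, adjusted p = 0.0415). The filter left out gsto1 in every comparison, and fitted without a filter it was higher in knockout liver than in knockout muscle, by 2.62 ± 0.56 (log2, edgeR adjusted p = 0.000298).

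Of the membrane-bound transferases, mgst1.2 was at 128 to 413 CPM in wild-type liver (median 215) and at 6.23 to 45.4 CPM in wild-type muscle (median 14.0), with no overlap. The log2 difference was 3.79 ± 0.38 in wild type (edgeR adjusted p = 4.35e-08) and 4.90 ± 0.32 in knockout (adjusted p = 1.38e-12). The adjacent gene mgst1.1 did not share this pattern: its means lay between 10.2 and 11.9 CPM in all 4 groups, and its log2 difference between tissues was -0.06 ± 0.28 in wild type and 0.01 ± 0.24 in knockout. Both encode microsomal transferases, and how reads were split between adjacent related genes is not shown by the counts. Their sequences were not compared. The other 3 were higher in liver in both genotypes, mgst2 by 3.25 ± 0.33, mgst3b by 2.63 ± 0.26 and mgst3a by 1.28 ± 0.30 in wild type (log2, edgeR adjusted p = 3.32e-08, 3.15e-09 and 0.00173).

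Among the glutathione peroxidases, gpx4a and gpx4b are copies of the gene for the enzyme that reduces peroxides within membrane lipids, and they had different tissue patterns. For gpx4a the wild-type livers ran from 1086.5 to 3520 CPM (median 1881) and the wild-type muscles from 32.3 to 206 CPM (median 53.2). No muscle library came near a liver library. In log2 units the tissues differed by 4.78 ± 0.39 in wild type (edgeR adjusted p = 5.77e-09) and 5.84 ± 0.30 in knockout (adjusted p = 1.13e-14). For gpx4b the means were 42.1 and 47.8 CPM in wild-type liver and muscle and 72.4 and 49.0 CPM in knockout liver and muscle, and it was called in neither genotype (edgeR adjusted p = 0.587 and 0.0825). In the knockout gpx4b was called as higher in liver by limma-voom (log2 difference 0.54, adjusted p = 0.0444). The same tool with cyclic loess scaling also called it there (0.80, adjusted p = 0.00443). The gene gpx1a, for the soluble enzyme that reduces hydrogen peroxide, ran from 88.0 to 723 CPM in wild-type liver (median 225) and from 14.7 to 40.8 CPM in wild-type muscle (median 21.01), with no overlap. Its log2 difference was 3.495 ± 0.36 (edgeR adjusted p = 4.56e-08). Its copy gpx1b was near the count floor, with means of 0.732 to 6.61 CPM. The secreted peroxidase gene gpx3 was higher in liver by 2.23 ± 0.25 in wild type and 2.24 ± 0.18 in knockout (log2, edgeR adjusted p = 1.83e-08 and 3.86e-11). Means of gpx9 were 16.6 to 20.7 CPM in all 4 groups, and those of gpx8, for an enzyme of the endoplasmic reticulum, were 3.35 to 5.24 CPM. Neither was called by edgeR with TMM and its count filter, and gpx8 did not pass that filter in wild type. In the knockout both were called as higher in muscle with library totals. There gpx9 was also called by limma-voom (log2 difference -0.45, adjusted p = 0.0382) and with at least 50 counts in 8 libraries (edgeR adjusted p = 0.0478).

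The peroxiredoxins were split between the tissues. The gene prdx4, for the form of the endoplasmic reticulum, had the largest liver excess of the 6, with means of 107 ± 43.9 CPM in wild-type liver against 12.2 ± 3.03 CPM in wild-type muscle (SD, n = 8 each) and a log2 difference of 3.12 ± 0.23 (edgeR adjusted p = 8.83e-12). The soluble forms prdx1, prdx2 and prdx6 were higher in liver by 1.92 ± 0.37, 1.44 ± 0.24 and 1.70 ± 0.30 in wild type. In contrast, prdx3, for the mitochondrial form, ran from 15.8 to 62.0 CPM in wild-type liver (median 30.7) and from 102 to 188 CPM in wild-type muscle (median 140), so that no liver reached the lowest muscle, with a log2 difference of -2.06 ± 0.22 (edgeR adjusted p = 9.76e-09). In the knockout the difference of prdx3 was -1.13 ± 0.24 (adjusted p = 0.000399), with overlapping groups. The gene prdx5, whose product in mammals is found in mitochondria, peroxisomes and the cytosol, ran from 14.8 to 32.4 CPM in wild-type liver (median 24.3) and from 28.04 to 92.5 CPM in wild-type muscle (median 82.1). Only muscle library 6 lay within the liver range. The fit gave a log2 difference of -1.66 ± 0.23 (edgeR adjusted p = 6.34e-07).

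The superoxide dismutases were also split in wild type. The gene sod1, for the copper-zinc enzyme of the cytosol, had means of 201 ± 100.8 CPM in wild-type liver against 41.9 ± 8.17 CPM in wild-type muscle (log2 difference 2.27 ± 0.25, edgeR adjusted p = 1.61e-08). The gene sod2, for the manganese enzyme of mitochondria, ran from 19.01 to 83.8 CPM in wild-type liver (median 48.7) and from 78.6 to 151 CPM in wild-type muscle (median 102), and the highest liver lay within the muscle range. Its log2 difference was -1.09 ± 0.24 in wild type (edgeR adjusted p = 0.00042) and -0.37 ± 0.28 in knockout (adjusted p = 0.301). In the knockout sod2 was called as higher in muscle by limma-voom (-0.57, adjusted p = 0.0477). It was also called there by edgeR without knockout muscle 6 and knockout liver 1 (-0.71, adjusted p = 0.021) and with library totals (-1.18, adjusted p = 0.000758). Catalase (cat), the hydrogen peroxide enzyme of peroxisomes, ran from 267 to 1017.5 CPM in wild-type liver (median 432) and from 48.8 to 117 CPM in wild-type muscle (median 60.7), with no overlap. In log2 units the tissues differed by 2.81 ± 0.26 (edgeR adjusted p = 6.67e-10).

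The genes that make and recycle glutathione and thioredoxin differed little between tissues in wild type. The subunit genes of glutamate-cysteine ligase, the rate-limiting step of glutathione synthesis, had wild-type means of 8.98 CPM in liver and 5.91 CPM in muscle for the catalytic subunit gclc and of 14.7 and 11.7 CPM for the modifier gclm. Glutathione reductase (gsr) was at 7.87 and 5.85 CPM and the thioredoxin reductase gene txnrd3 at 24.8 and 19.002 CPM. None of the 4 was called in wild type (edgeR adjusted p from 0.204 to 0.438), while in the knockout all 4 were called as higher in liver, by 1.29 ± 0.31 (gclc), 0.73 ± 0.26 (gclm), 1.69 ± 0.45 (gsr) and 1.03 ± 0.26 (txnrd3). With library totals neither these 4 nor the 3 mu-class genes were called in the knockout, and gclm, gstm.1 and gstm.3 turned to -0.18, -0.07 and -0.03. Those 3 were also not called without knockout muscle 6 and knockout liver 1 (0.51, 0.72 and 0.72, edgeR adjusted p = 0.128, 0.0615 and 0.069), and the change of these differences with genotype is tested as an interaction further on. The quinone reductase gene nqo1 and mt2 were higher in liver in wild type, by 1.40 ± 0.33 and 1.86 ± 0.34 (log2, edgeR adjusted p = 0.000933 and 9.85e-05).

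**Figure D2:**
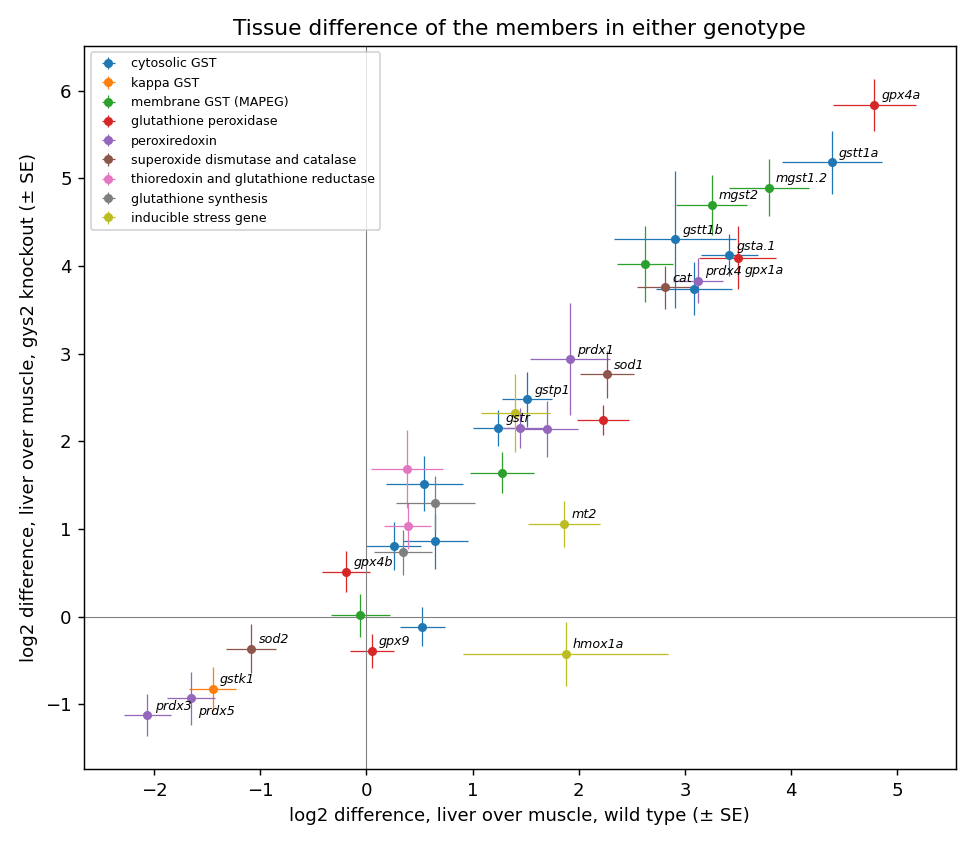
Log2 difference of liver over muscle in wild type (horizontal axis) and in gys2 knockout (vertical axis) for the members tested in both genotypes; points are fitted values, bars are standard errors and colours are families. The points run from prdx3 at the lower left (-2.06 and -1.13) to gpx4a at the upper right (4.78 and 5.84), and hmox1a (1.88 and -0.43) lies apart.

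The kappa-class transferases, which in mammals reside in mitochondria and peroxisomes, were the muscle-high transferases. For gstk1 the wild-type livers ran from 38.0 to 114 CPM (median 52.8) and the wild-type muscles from 118 to 208 CPM (median 171), with no overlap. The fit gave a log2 difference of -1.45 ± 0.22 (edgeR adjusted p = 3.48e-06). For gstk2 the wild-type livers ran from 0.998 to 6.89 CPM (median 1.80) and the wild-type muscles from 7.17 to 42.4 CPM (median 21.01). These came from 2 to 16 counts in the livers and 16 to 278 in the muscles, so gstk2 met the count rule for members through the muscles. Its log2 difference was -3.25 ± 0.48 (edgeR adjusted p = 9.03e-06). The third kappa gene, gstk4, was looked at library by library after its values were seen. It stood at 332 CPM in wild-type muscle 4, 409 CPM in wild-type muscle 5 and 503 CPM in knockout muscle 1, from 692, 2111 and 1948 counts, and at 2.42 to 19.3 CPM in the other 13 muscle libraries. No liver library had more than 6.97 CPM, and gstk4 too met the count rule for members through the muscles. The same 3 muscle libraries held the lowest gstk2 values of their groups, 7.66 and 7.17 CPM for the wild-type libraries and 1.81 CPM for the knockout library, while gstk1 was the highest of its group in knockout muscle 1 (223 CPM) and lay within the range of the others in both wild-type libraries. The log2 difference of gstk4 between tissues in the knockout was -4.84 ± 1.36 (edgeR adjusted p = 0.00959), without knockout muscle 1 it was -1.24 ± 0.41 (adjusted p = 0.0164), and by limma-voom it was -1.86 ± 0.84 and not called (adjusted p = 0.0688). In the RefSeq annotation of zebrafish gstk1 and gstk4 are direct neighbours.

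**Figure D3:**
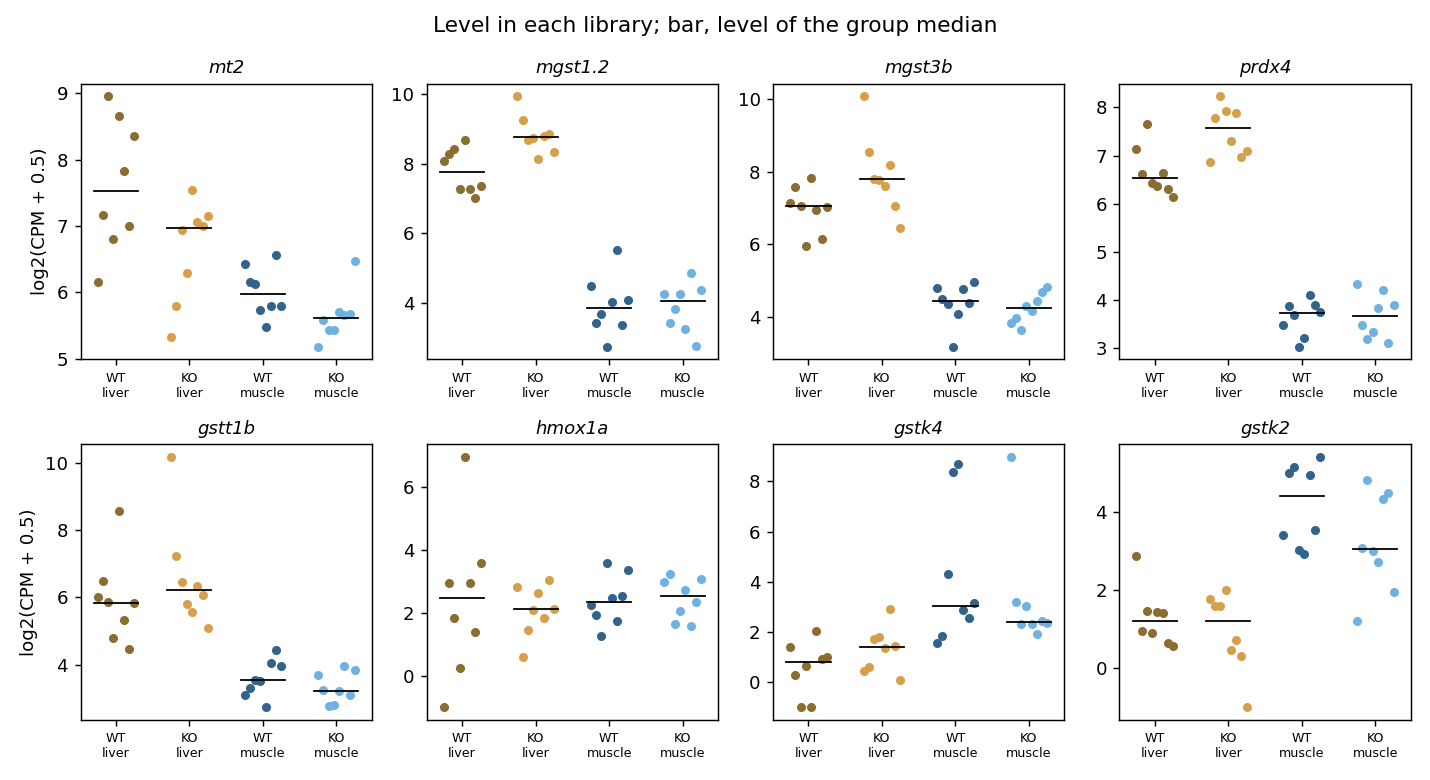
Level of 8 genes in each library, as log2(CPM + 0.5), by group (WT, wild type; KO, gys2 knockout); points are libraries and bars mark the group median. Knockout livers sit above the wild-type median for mgst1.2 and prdx4 and mostly below it for mt2, hmox1a is high in 1 wild-type liver, gstt1b in 1 liver of each genotype, and gstk4 in 3 muscles.

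The second comparison asked whether the loss of gys2 changed these genes in liver. No member was called: 36 were tested and the smallest edgeR adjusted p was 0.108, where 0.0742% of all 9438 genes were called (7 genes). At an unadjusted p under 0.05 there were 13 members, 12 higher and 1 lower in the knockout, beside 22.4% of all genes. The Wald test of DESeq2 called mgst1.2 as higher and mt2 as lower, where 3.52% of all genes were called, and limma-voom called mgst1.2 alone, where 2.37% were called. The log2 change was positive for 33 members and negative for mt2, gpx9 and gstt2, while it was positive for 48.2% of all genes, and the members' median was 0.53 against -0.02. This direction depended on the scaling: with library totals 20 were positive and 16 negative, their median was 0.08 while that of all genes was -0.54, and mt2, gpx9 and gstt2 were called as lower, where 34.4% of all genes were called. Under both scalings 33 of 36 members lay above the median of all genes. These scalings differ only by a factor for each whole library, which moved the members and that median down together. The count with library totals is therefore no independent check. With cyclic loess scaling 29 of 36 lay above the median of all genes, the members' median was 0.25, and gpx4a, at 0.29 with TMM, was at -0.28. As a share of all counts in the library, the members took 0.622 ± 0.198% in wild-type and 0.623 ± 0.320% in knockout liver (SD, n = 8 each). Since livers were scaled apart from muscles in this fit, its changes are lower than the ratios of the CPM means by a median of 0.15 on the log2 scale. With every liver thinned to the depth of the shallowest, 30 of 35 members were positive with a median of 0.49 and none was called.

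**Figure D4:**
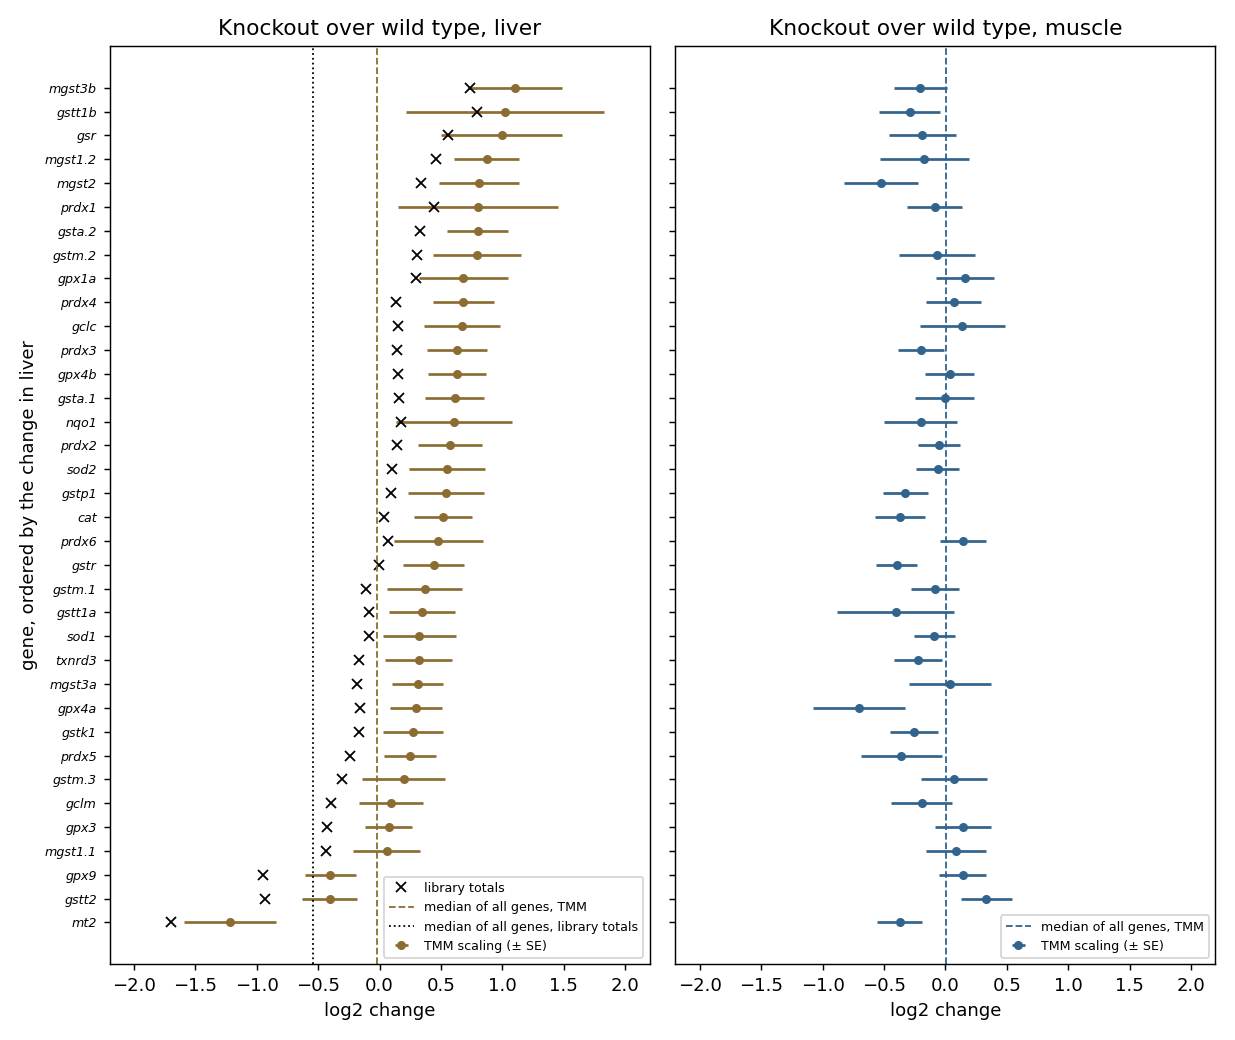
Log2 change of knockout over wild type in liver (left, 36 members) and for the 35 of them tested in muscle (right), ordered by the change in liver; points are fitted values with standard errors, crosses are liver values with library totals, and vertical lines are the medians of all genes. The liver points lie right of their dashed line except mt2 (-1.22), gpx9 and gstt2, and the crosses lie right of the dotted line at -0.54 except for the same 3; muscle points lie on both sides of 0.

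The membrane-bound transferases had the highest median change of the families with more than 2 tested members, 0.81, with 5 of 5 positive. For mgst1.2 the wild-type livers ran from 128 to 413 CPM (median 215) and the knockout livers from 280.0 to 979 CPM (median 437). All 8 livers of knockout fish exceeded the wild-type median, though the groups overlap. All 8 did so for 10 of the 36 members tested in liver, among them gpx3, with a fitted log2 change of 0.07. These counts rest on CPM scaled over all 32 libraries. The share of all genes for which all 8 did so was not counted. The fitted log2 change was 0.87 ± 0.27 (edgeR adjusted p = 0.108). Its adjusted p was 0.0396 with DESeq2 and 0.0494 with limma-voom, and it ran from 0.0396 to 0.226 over the alternatives and the libraries left out in turn. For mgst3b the wild-type livers ran from 61.1 to 226 CPM (median 132) and the knockout livers from 87.2 to 1083 CPM (median 221). Of the knockout livers 7 of 8 exceeded the wild-type median, with a log2 change of 1.10 ± 0.39 (edgeR adjusted p = 0.141). The highest of these was knockout liver 1 and the next was at 373 CPM, and without the former the knockout mean was 217 ± 94.7 CPM (n = 7), against 134 ± 54.9 CPM in wild type (n = 8). For mgst2 the wild-type livers ran from 28.9 to 147 CPM (median 58.9) and the knockout livers from 45.0 to 203 CPM (median 144), with 6 of 8 above the wild-type median and a log2 change of 0.81 ± 0.33 (edgeR adjusted p = 0.165). The changes of mgst3a (0.31 ± 0.21) and mgst1.1 (0.06 ± 0.28) were small beside their errors.

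Of the cytosolic transferases, 9 of 10 tested had positive values and none was called. Wild-type livers ran from 5.28 to 17.3 CPM (median 11.9) and knockout livers from 11.7 to 38.8 CPM (median 21.3) for gsta.2, with 7 of 8 above the wild-type median and a log2 change of 0.80 ± 0.25 (edgeR adjusted p = 0.118). Its neighbour gsta.1 ran from 58.0 to 193 CPM (median 117) in wild type and from 131 to 337 CPM (median 198) in knockout, with all 8 above the wild-type median and a log2 value of 0.61 ± 0.24 (edgeR adjusted p = 0.154). The mu-class gene gstm.2 ran from 3.17 to 23.9 CPM (median 8.35) in wild type and from 5.34 to 32.2 CPM (median 16.5) in knockout, with a log2 value of 0.79 ± 0.36 (edgeR adjusted p = 0.194). For gstp1, gstr and gstt1a the log2 values were 0.54 ± 0.31, 0.44 ± 0.25 and 0.35 ± 0.27, and for gstm.1 and gstm.3 they were 0.37 ± 0.30 and 0.20 ± 0.34. The value for gstt1b, 1.02 ± 0.81, had the largest error of all, since 1 liver of each genotype stood far above the rest: knockout liver 1 at 1150 CPM and wild-type liver 5 at 378 CPM, with the others between 21.8 and 151 CPM. Without those 2 livers the means were 74.8 ± 38.3 CPM in knockout livers and 50.9 ± 23.4 CPM in wild type (n = 7 each). The theta-class gene gstt2 was at 33.4 ± 10.7 CPM in wild-type fish against 28.5 ± 7.35 CPM in knockout fish (log2 value -0.41 ± 0.23), and the kappa gene gstk1 had 0.27 ± 0.25.

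All 6 peroxiredoxins had positive values in liver, with a median of 0.60. For prdx4 the wild-type livers ran from 70.4 to 202 CPM (median 91.6) and the knockout livers from 116 to 301 CPM (median 189), all 8 above the wild-type median. The fitted log2 change was 0.68 ± 0.25 (edgeR adjusted p = 0.143). For prdx3 they ran from 15.8 to 62.0 CPM (median 30.7) and from 30.98 to 106 CPM (median 51.5). Again all 8 lay above the wild-type median on CPM scaled over all 32 libraries, the lowest only just. The fitted log2 change was 0.63 ± 0.25 (edgeR adjusted p = 0.154). In both genes the groups overlap, and with library totals the log2 changes were 0.13 for prdx4 and 0.14 for prdx3. Values for prdx2, prdx6 and prdx5 were 0.57 ± 0.26, 0.48 ± 0.36 and 0.25 ± 0.21. The value for prdx1, 0.80 ± 0.65, was uneven among fish: knockout liver 1 was at 506 CPM and wild-type liver 1 at 149 CPM, and without the former the knockout mean was 68.3 ± 47.4 CPM (n = 7), beside 61.6 ± 46.4 CPM in wild type (n = 8).

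Of the 5 glutathione peroxidases tested, 4 had positive values. For gpx4b the wild-type livers ran from 24.3 to 64.4 CPM (median 39.7) and the knockout livers from 31.1 to 110 CPM (median 73.9), 7 of 8 above the wild-type median, with a log2 change of 0.63 ± 0.24 (edgeR adjusted p = 0.150). Its copy gpx4a had 0.29 ± 0.21 on means of 1959 ± 779 and 2657 ± 759 CPM. The difference between the copies was not tested. The value for gpx1a was 0.68 ± 0.36, that for gpx3 0.07 ± 0.19 and that for gpx9 -0.40 ± 0.21. Of the remaining enzymes, gsr had 0.99 ± 0.49, gclc 0.67 ± 0.31, nqo1 0.60 ± 0.47, sod2 0.55 ± 0.31, cat 0.51 ± 0.24, sod1 0.32 ± 0.30, txnrd3 0.32 ± 0.27 and gclm 0.09 ± 0.26. For 16 of the 36 tested members the 95% interval of the change lay between -1 and 1 on the log2 scale, so that for the other 20 a change of 2-fold in at least one direction was within the error.

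The metallothionein gene mt2 had the lowest value of the members tested in liver. Its wild-type livers ran from 71.0 to 497 CPM (median 185) and its knockout livers from 39.7 to 186 CPM (median 126), with 1 of 8 knockout livers above the wild-type median. The groups overlap, and the 4 highest wild-type livers, numbers 3, 5, 6 and 8, lay above every knockout liver. The log2 change was -1.22 ± 0.38 (edgeR adjusted p = 0.119). It was -1.70 with library totals (adjusted p = 0.00335) and the adjusted p was 0.0433 with DESeq2, and over the alternatives and the libraries left out in turn the value ran from -1.70 to -0.95.

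Haem oxygenase (hmox1a), which degrades haem and is induced by stress, was low in nearly all libraries and did not pass the filter of the liver fit. In wild-type liver it ran from 0 to 124 CPM (median 5.11), and the library at 124 CPM, wild-type liver 5, was followed by one at 11.5 CPM. Without it the wild-type mean was 4.53 ± 4.20 CPM (n = 7), and the knockout livers were at 4.25 ± 2.28 CPM (n = 8). Also left out of the liver fit by the filter were gpx1b, gpx8, gsto1, gsto2, gstk2 and gstk4, and fitted without a filter none of the 7 was called (edgeR adjusted p from 0.305 to 0.850).

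Several cell type markers also differed between the liver groups, and a few libraries were often the highest or lowest. The marker sums are TMM-scaled CPM, and their dependence on the scaling was not tested. The summed hepatocyte markers had medians of 50445 CPM in wild-type (26101 to 126420) and 75919 CPM in knockout liver (65969 to 157860), with none of 14 at 0. The macrophage markers had medians of 235 and 398 CPM (12 markers), the erythrocyte markers 525.9 and 952 CPM (8 markers), the exocrine pancreas markers 204 and 874 CPM (14 markers), the biliary and stellate markers 300.4 and 479 CPM (8 markers) and the intestine markers 552 and 1281 CPM (7 markers, of which fabp6 was at 0 in wild-type liver). Those of endothelium were at 93.1 and 89.3 CPM, of oocyte and ovary at 104.9 and 104.2 CPM, of neutrophils at 38.8 and 32.6 CPM and of adipocytes at 35.5 and 31.3 CPM. The part of these cell types in the result was not tested. The summed level of the members ran from 3461 to 11811 CPM in wild-type and from 6189 to 17975 CPM in knockout liver. Knockout liver 1 was the highest of its group for 28 of 43 members and wild-type liver 5 for 23, while wild-type liver 7 and knockout liver 8 were the lowest of their groups for 23 and 22. Without wild-type liver 5 and knockout liver 1 together, 32 of 36 members had positive values, with a median of 0.44 and none called, and without knockout liver 1 alone 31 of 36 did, with a median of 0.31.

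In muscle the third comparison asked the same question. The other glycogen synthase gene, gys1, was at 155 ± 30.3 and 133 ± 19.5 CPM in wild-type and knockout muscle. It was also present in liver, at 52.9 ± 7.10 and 42.1 ± 5.05 CPM (SD, n = 8 each). None of 40 tested members was called, where 0% of all 12415 genes were called by edgeR, and 1 had an unadjusted p under 0.05, beside 4.74% of all genes. By limma-voom no gene was called, and by DESeq2 1 gene that is no member (0.00805% of all genes). Values were positive for 14 members and negative for 26, beside 50.6% positive among all genes, with a median of -0.09 against 0.00 for all genes. With library totals 21 were positive and 19 negative, beside 68.6% positive among all genes, whose median was then 0.13. The member with the smallest p was gstr, at 185 to 303 CPM in wild-type muscle (median 201) and 130 to 222 CPM in knockout muscle (median 149), with 6 of 8 knockout libraries below the wild-type median and a log2 change of -0.40 ± 0.17 (edgeR adjusted p = 0.951).

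The next members in order of p in muscle were also lower on average in the knockout. For mt2 the wild-type muscles ran from 44.0 to 94.6 CPM (median 62.4) and the knockout muscles from 35.9 to 88.0 CPM (median 48.7), with a log2 value of -0.37 ± 0.19 (edgeR adjusted p = 0.951). In the knockout, 7 of the 8 lay at or below 51.5 CPM and library 8 at 88.0 CPM. For cat they ran from 48.8 to 117 CPM (median 60.7) and from 28.02 to 83.3 CPM (median 48.9), with a log2 value of -0.37 ± 0.20, and for gpx4a from 32.3 to 206 CPM (median 53.2) and from 23.99 to 92.7 CPM (median 39.0), with -0.70 ± 0.37. Without wild-type muscle 6, the highest of its group, gpx4a had -0.22, and without knockout muscle 6 it had -0.95. In all of these the groups overlap. The value for mgst2, at 3.12 to 10.9 CPM (median 6.53) in wild type and 1.93 to 7.35 CPM (median 5.28) in knockout, was -0.53 ± 0.30 (edgeR adjusted p = 0.951 for each of these genes).

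Muscle library 6 of each genotype was the highest of its group for gpx4a, gstt1a, mgst1.2 and cat, and it was the library with the highest hepatocyte markers, at 6722 and 3386 CPM where the next in each group had 1324 and 1109 CPM. The median hepatocyte marker sum of muscle was 2.30% of that of liver in wild type and 1.36% in knockout. In wild type the muscle median was 2.83% of the liver median for gpx4a, 3.89% for gstt1a, 6.499% for mgst1.2 and 14.07% for cat. In knockout these shares were 1.67%, 1.98%, 3.70% and 6.69%. For prdx4 the share was 13.8% in wild type. Without both libraries 16 members had positive and 24 negative values in muscle, and none was called. The part of the hepatocyte signal in the muscle values of liver-high members was not tested.

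Whether the genotype difference itself differed between tissues was tested over all 32 libraries. None of 41 members was called for this interaction, where 0.211% of all 13725 genes were called by edgeR (29 genes), and 17 members had an unadjusted p under 0.05 beside 18.3% of all genes. DESeq2 called none of the members and 1.11% of all genes. By limma-voom prdx3, gstr and cat were called with a positive value, where 3.62% of all genes were called, and by the same tool with cyclic loess scaling prdx3, where 2.91% were called. With library totals gstt2, mt2 and gpx9 were called with a negative value, where 24.6% were called. The interaction value, the liver change minus the muscle change in this joint fit, was positive for 36 members and negative for 5, with a median of 0.77, while 56% of all genes were positive with a median of 0.11. All 32 libraries were scaled together for it, so it does not equal the difference of the changes fitted within each tissue. With library totals it was positive for 22 and negative for 19, with a median of 0.01 against -0.70. The smallest unadjusted p values were those of gstr (0.98 ± 0.31), mgst2 (1.51 ± 0.48), cat (1.02 ± 0.34) and prdx3 (1.00 ± 0.33), with edgeR adjusted p of 0.123, 0.125, 0.129 and 0.130. For the enzymes of glutathione supply and reduction, which were called between tissues in the knockout and not in wild type, the interaction values were 1.37 ± 0.57 (gsr), 0.71 ± 0.35 (txnrd3), 0.71 ± 0.50 (gclc) and 0.47 ± 0.38 (gclm), with edgeR adjusted p of 0.209, 0.273, 0.438 and 0.516. The value of hmox1a, -2.22 ± 1.06, was -0.11 ± 0.69 without wild-type liver 5.

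Other genes of the same pathways were taken from 6 lists, and by edgeR none of their genes was called between genotypes in liver or in muscle. In liver 70 of the 89 genes tested had positive values, beside 48.2% of all genes. With library totals 28 did, beside 15.96% of all genes. Under that scaling 11 of the 89 were called as lower, where 3233 of all 9438 genes were. Of the selenoprotein genes, which include the relatives of the selenium-dependent peroxidases and the enzymes that insert selenocysteine, 16 of 19 tested had positive values in liver and 2 of 21 in muscle, where 50.6% of all genes did. With library totals 6 of the 19 were positive in liver and 5 of the 21 in muscle, beside 15.96% and 68.6% of all genes. All 22 tested for the interaction had positive values, beside 56% of all genes, with a median of 0.75 against 0.11 for all genes, and 12 had an unadjusted p under 0.05, beside 18.3%. With library totals 12 of the 22 were positive, with a median of 0.02 against -0.70. The gene selenop2, one of the selenoprotein P genes, was at 57.3 ± 27.98 CPM in wild-type livers against 116 ± 63.3 CPM in knockout livers (log2 value 0.86 ± 0.31, edgeR adjusted p = 0.141), and selenot1a at 28.6 ± 8.77 and 43.9 ± 22.1 CPM (0.47 ± 0.24, adjusted p = 0.241).

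In the list of glutathione and cysteine supply 9 of 13 tested genes had positive values in liver, beside 48.2% of all genes. With library totals 7 of the 13 did, beside 15.96% of all genes. The amino acid transporter gene slc1a4 was at 34.8 ± 6.83 CPM in wild-type livers against 23.8 ± 5.11 CPM in knockout livers (-0.72 ± 0.20, edgeR adjusted p = 0.0893), and ahcy, which hydrolyses S-adenosylhomocysteine, at 930.1 ± 257 and 1475 ± 211 CPM (0.51 ± 0.18, adjusted p = 0.140). Of the thioredoxins and glutaredoxins 11 of 14 had positive values, and 5 with library totals. The gene glrx3 was at 8.98 ± 3.42 and 16.7 ± 6.65 CPM (0.72 ± 0.26, edgeR adjusted p = 0.144) and txndc9 at 27.5 ± 8.62 and 42.9 ± 11.9 CPM (0.50 ± 0.21, adjusted p = 0.169). Of the NADPH-supplying enzymes 8 of 10 had positive values, and 4 with library totals. The value for the transketolase gene tktb was 1.83 ± 0.63 (edgeR adjusted p = 0.141). It rested on uneven livers, since tktb ran from 55.5 to 1433 CPM in knockout liver with a median of 182, against 29.9 to 159.7 CPM with a median of 77.4 in wild type.

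Of other oxidant and aldehyde defence genes 22 of 25 had positive values in liver, beside 48.2% of all genes. With library totals 5 of the 25 did, beside 15.96% of all genes. The methylglyoxal enzyme glo1 was at 29.5 ± 9.42 CPM in wild-type livers against 49.8 ± 13.2 CPM in knockout livers (0.62 ± 0.20, edgeR adjusted p = 0.123), and the extracellular superoxide dismutase gene sod3b at 7.47 ± 2.51 and 4.58 ± 3.49 CPM (-0.90 ± 0.38, adjusted p = 0.173). The regulators were split, with 4 of 8 positive, and 1 with library totals. Transcripts of mtf1, the metal-sensing activator of metallothionein genes, were at 61.8 ± 14.6 and 49.2 ± 7.17 CPM (-0.50 ± 0.18, edgeR adjusted p = 0.143), and those of nfe2l1b, a relative of Nrf2, at 9.99 ± 4.46 and 6.32 ± 2.61 CPM (-0.80 ± 0.31, adjusted p = 0.153). Between genotypes and in the interaction, edgeR called 1 gene over the 6 lists, in the interaction: keap1a, one of the genes for the Nrf2 adaptor, at 2.28 ± 1.48 CPM in wild-type livers against 8.11 ± 5.23 CPM in knockout livers and at 3.87 ± 1.33 and 2.45 ± 1.53 CPM in the muscles (2.42 ± 0.57, edgeR adjusted p = 0.04997). This gene was named for its call after its values were seen, and it did not pass the filter of the liver fit. With single libraries left out its edgeR adjusted p ran from 0.0338 to 0.125, and in most of these fits it was not called.

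Libraries of one group differed among themselves by unequal amounts from gene to gene. Among members with a mean of at least 20 CPM, the coefficient of variation had a median of 43.6% over 27 members in wild-type liver, 44.5% over 29 in knockout liver, 29.4% over 20 in wild-type muscle and 33.4% over 19 in knockout muscle. The steadiest were prdx5 (27.2%) and gpx3 (15.2%) in the livers and prdx2 (13.5%) and prdx6 (15.6%) in the muscles, of wild-type and knockout fish in turn, and the most variable were gstt1b (128% and 183%) in liver and gstk4 (172% and 260.1%) in muscle.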

How the data were processed

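The deposited table held raw counts as whole numbers, by gene symbol, for 32 libraries, per the file headers and values. The build GRCz11 and the tools Salmon 1.10.2, BWA 0.7.17-r1188 and fastp 0.23.4 are listed in the submitters' processing notes. Nothing used here says whether the counts are rounded estimates or whether strand or molecular identifiers were used, so overlapping genes and related genes that lie close together in RefSeq (gsta.1 and gsta.2, the gstm genes, gsto1 and gsto2, gstk1 and gstk4, mgst1.1 and mgst1.2) are uncertain one by one.

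The members and gene lists were chosen with earlier results of these data known. Each comparison was fitted on the whole table with edgeR 4.0.16 in R 4.3.3 (filterByExpr with 10 as minimum count and 15 as minimum total, TMM, robust quasi-likelihood F test, group as the only term, or genotype, tissue and their interaction), with calls at p under 0.05 after Benjamini-Hochberg adjustment over all genes tested. Log2 changes carry standard errors, and CPM means carry SDs over 8 libraries. Liver and muscle libraries entered as independent. Replicates are separate fish per the labels. Alternatives used DESeq2 1.42.0, limma 3.58.1 (voom with quality weights), other scalings, filters and depth, a replicate block, and each library left out in turn. Cyclic loess and the removal of the libraries with high hepatocyte markers were chosen after seeing the data. The procedures were tested on simulated counts.

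Genes given with values by library are the 10 members with the smallest p in liver and the 5 in muscle, the 6 and 4 with the highest wild-type means in liver and muscle, and the 5 with the largest wild-type tissue difference in each direction; of each further list, the 2 with the smallest p in liver. One gene that this rule names is not reported here. Of the 43 members 42 matched the RefSeq table by symbol, which was used for neighbours only because its build (GRCz12tu) is another one. Protein and promoter sequences were not used here.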

Additional observations from a re-analysis of the deposited data

Results flagged for a closer look

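Values on the log2(CPM + 0.5) scale were searched for a highest or lowest library set far from the other 7 of its group, in the 20 members that the rule for values by library names. The genes gstk4, hmox1a and gstt1b, whose uneven libraries are described above, are not among them and were not searched. In 8 of 80 gene and group pairs 1 library was set apart, and chance alone sets apart about 1 group in 20. The pairs share libraries and are not independent. In muscle, library 6 was set apart 4 times: gpx4a was at 206 CPM and gstt1a at 57.0 CPM in wild-type muscle 6, gstt1a was at 40.7 CPM in knockout muscle 6, and prdx5 was at 28.04 CPM in wild-type muscle 6, the lowest of its group. These libraries also had the highest hepatocyte markers of their groups, and the part of that signal was not tested. In liver, knockout liver 1 was set apart for gpx4a, at 4424 CPM, and for gpx1a, at 1309 CPM. Wild-type liver 1 was set apart for gstk2, at 6.89 CPM. Knockout muscle 8 was set apart for mt2, at 88.0 CPM.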

How the results depend on the processing

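Of the called differences, those of gclm, gstm.1 and gstm.3 between knockout tissues changed sign with library totals (-0.18, -0.07 and -0.03, not called), and no other did under any alternative. The signs of uncalled liver values depended on the scaling. In liver, 0 members were called, and 2 with DESeq2, 1 with limma-voom and 3 with library totals; for the interaction, 0 were called, and 3 with limma-voom, 3 with library totals and 1 with cyclic loess. In muscle every alternative gave 0. With each library left out in turn the liver, muscle and interaction counts ran from 0 to 0, the tissue counts from 26 to 28 in wild type and from 31 to 34 in knockout. With the replicate block they were 0, 0 and 0, and 26 and 29 for the tissues. The library numbers were not taken as pairs, since not every pair correlated above 0.1. Between the genotypes, which are different fish, the correlations of same-numbered deviations ran from -0.13 to 0.18 in liver and from -0.03 to 0.43 in muscle. There 3 and 5 of 8 pairs were over 0.1, and 2 and 5 of 8 libraries were closest to their own number. For muscle this is a hint of a link between same-numbered libraries, from the data and not from the labels. Between liver and muscle the correlations ran from -0.15 to 0.05 in wild type and from -0.12 to 0.17 in knockout, with 0 and 1 of 8 pairs over 0.1. For gpx4a in muscle the change ran from -0.95 to -0.22 with a library left out. Wild-type livers were the shallowest, and the omega genes, gpx1b, gpx8, hmox1a and gstk2 had low counts in most of them. The part of depth in these low counts was not tested. The cause of the shifts between settings was not tested either.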
